A study of Mus musculus with 6 samples.

Results

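The DNA replication machinery is described here as 45 genes, from the proteins that mark origins to those that join the finished strands, in RNA of mouse spleen CD4+ T cells after haematopoietic stem cell transplantation. The members were listed by gene symbol, and all 45 were found among the 15686 genes of the deposited table. There were 6 libraries. For 3 of them, labelled allogeneic, the labels name C57BL/6 as donor and BALB/c as host, and for the other 3, labelled syngeneic, BALB/c as both, though genes that differ between the strains go against these labels. The labels give BALB/c as the strain of every sample and name no age, dose or time after transplantation, and the cells of both groups were isolated from dissected spleens with a CD4+ T cell kit. The question behind the comparison was which genes and pathways separate the cells of these groups, as raised by graft-versus-host disease, in which donor T cells attack the host. Whether replicates came from separate animals is not stated, so the p-values here rest on a spread that may be technical.

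Replication of a chromosome starts at origins. The origin recognition complex (Orc1 to Orc6) binds DNA there, and Cdc6 and Cdt1 then load the ring-shaped helicase Mcm2 to Mcm7, a step called licensing. Cdc45 and the GINS complex (Gins1 to Gins4) join the ring to make the active helicase, polymerases alpha, delta and epsilon copy the strands, and the sliding clamp PCNA, placed by the clamp loader RFC (Rfc1 to Rfc5), holds polymerases on DNA. Genes of this set are known targets of E2F transcription factors, which are released when a resting lymphocyte is driven into the cell cycle. In spleen, dividing cells include activated T cells, B cells that become plasma cells, and precursors of red cells and granulocytes.

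The promoters of these genes are shown first because E2F sites in them are the best known shared feature of the set. RefSeq promoter windows (build GRCm38.p6, 250 bases before to 50 after a start) were found for 36 of the 45 members, with 44 starts among them. An E2F-type match was the run TTCGCGC, or with other middle letters TTGGCGC, or else the run TTCCCGC, or last the run TTGCCGC, on either strand, with overlapping matches counted once. It was present in 25 of the 44 member windows (56.8%) and in 9.6% of the 32851 windows of all genes. Counted by gene it was found in 23 of 36 members (63.9%) and in 19.5% of the 8958 genes that were tested here and had a window. The letters CCAAT, also sought on both strands and read by the factor NF-Y, were found in 54.5% of member windows and 37.4% of all windows. The CHR letters TTTGAA or TTCGAA, known from genes of the later cell cycle, were found in 15.9% and 19.2%, and by gene in 19.4% of members and 16.6% of tested genes. Matches of different kinds could overlap, a match is not a shown binding site, and no match says only that these letters are absent from that window.

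Upstream sequence is printed for Pola1, the member with the highest log2 fold change, for Mcm5, the helicase gene with the highest level, and for Orc5, the member that was called lower. Each line runs 5′ to 3′ on the strand of the gene and ends before its annotated start, and capitals mark E2F-type and CCAAT matches. Pola1 is shown at chrX:93632156-93632405 (minus strand) and Mcm5 at chr8:75109259-75109508 (plus strand), 250 bases each, and further matches lie after their starts. Orc5 is shown at chr5:22550430-22550588 (minus strand), 159 bases that hold no match and overlap an exon of the gene 6030443J06Rik.
Pola1: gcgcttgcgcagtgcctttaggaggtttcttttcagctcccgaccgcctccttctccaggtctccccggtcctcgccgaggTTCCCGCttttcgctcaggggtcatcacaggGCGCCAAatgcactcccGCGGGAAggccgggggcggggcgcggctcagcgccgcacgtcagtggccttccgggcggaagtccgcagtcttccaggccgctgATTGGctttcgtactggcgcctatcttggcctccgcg
Mcm5: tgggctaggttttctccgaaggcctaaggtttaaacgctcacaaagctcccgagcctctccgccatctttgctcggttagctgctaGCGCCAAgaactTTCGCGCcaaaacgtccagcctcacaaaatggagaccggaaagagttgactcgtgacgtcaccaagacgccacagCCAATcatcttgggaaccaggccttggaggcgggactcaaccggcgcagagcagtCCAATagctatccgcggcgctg
Orc5: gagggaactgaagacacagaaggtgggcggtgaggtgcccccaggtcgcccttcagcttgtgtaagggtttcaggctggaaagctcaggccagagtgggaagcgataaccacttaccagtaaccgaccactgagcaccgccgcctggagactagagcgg

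Shorter stretches show 1 E2F-type match each of Orc1, which had the highest fold by mean level, and of 3 other helicase genes, with 10 bases on each side and the match in capitals. Positions are counted from the RefSeq start as +1. The Orc1 match begins at −27 (chr4:108579417-108579443, plus strand) and the Mcm6 match at −46 (chr1:128359735-128359761, minus strand). The Mcm7 match begins at 18 (chr5:138171850-138171876, minus strand) and the Mcm3 match at 20 (chr1:20820277-20820303, minus strand). No E2F-type match was found in the windows of Mcm2, Pcna, E2f1 or Ccne1. The E2f1 window lay wholly inside the annotated gene, so sequence before the annotated start of E2f1 was not searched. The windows that held the matches of Mcm7, Cdc6, Orc4 and Lig1 also lay wholly inside the annotated genes, and these matches were counted. For Pcna 116 of the 250 upstream bases lay before its annotated start.
Orc1: tcggttagtgGCGCGAAaagttttctc
Mcm6: ttggacgggtTTGGCGCgaagtagctc
Mcm7: gtgacgacgtTTCGCGCcaatttcggt
Mcm3: aacttccgtgGCGGGAAaacttgggaa

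The implied depth of a library was 14.8 to 16.96 M reads, and a member was backed by 71 to 8304 reads in a library. Pseudogenes at least 85% identical to at least 10% of a transcript were found for 10 members (Cdc6, Gmnn, Mcm4, Mcm6, Mcm7, Orc1, Pcna, Pold3, Rfc5 and Rpa3), whose levels are uncertain where reads were split. Levels are FPKM, reads scaled to the length of the gene and the depth of the library, so genes can be compared per length. Correlation of log2 values across genes, which are not independent replicates, ranged from 0.987 to 0.989 for libraries of 1 group and from 0.881 to 0.886 for libraries of different groups. Of 9 genes known to differ between the donor strains, 8 went against the labels. Trbv26, a receptor segment deleted from T cells of BALB/c mice, had 0, 0.337 and 0.869 FPKM where the label was allogeneic and 56.5 ± 3.25 (SD, n = 3) where it was syngeneic. H2-Ea-ps, silent in C57BL/6, was at 132.5 ± 3.02 and 21.1 ± 2.73 FPKM. In the titles of the samples an S goes with the allogeneic label and an A with the syngeneic one, letters that the labels do not explain. If the 2 groups were exchanged, every direction below would be reversed. Directions are between libraries as labelled, called allogeneic-labelled and syngeneic-labelled from here on.

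Replication genes were higher in allogeneic-labelled libraries nearly throughout. Of the 45 members 42 (93.3%) were called higher and 1 was called lower by limma on log2(FPKM + 1) with Benjamini-Hochberg adjustment over 13235 genes (adjusted p under 0.05), and 2 were not called. Among all genes tested 40.7% were called higher and 26.6% lower. The median log2 fold change was 0.85 for the members and 0.09 for all genes. By mean FPKM 17 members were at least 2-fold higher, 17 were between 1.5-fold and 2-fold, and 11 were below 1.5-fold. All 3 allogeneic-labelled libraries lay above all 3 syngeneic-labelled for 42 members and below them for 1, against 43.4% and 29.1% of all genes. The spread between replicates was small beside these differences, with a median coefficient of variation over the members of 3.86% in allogeneic-labelled libraries and 5.16% in syngeneic-labelled ones.

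**Figure D1:**
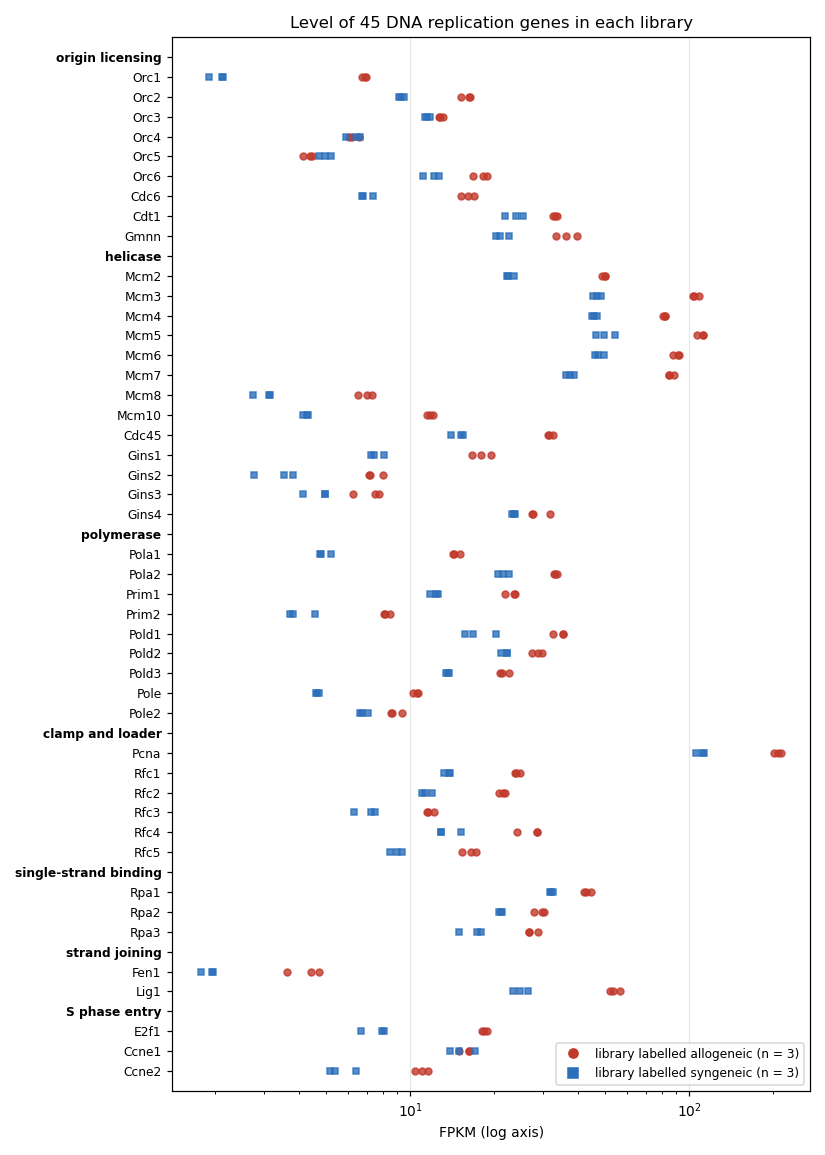
FPKM (log axis) of the 45 members in each library, red circles for allogeneic-labelled libraries and blue squares for syngeneic-labelled ones (3 each). For 42 members the red points all lie to the right of the blue ones, and they mix for Orc4 and Ccne1.

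The origin recognition complex did not move as a unit, and the shares of 5 of its 6 subunits in the total did not overlap between groups. Orc1, its ATP-hydrolysing subunit, which in human cells is known to be degraded and remade with each cell cycle, stood at 6.90, 6.74 and 6.95 FPKM in allogeneic-labelled libraries and at 2.12, 2.13 and 1.90 in syngeneic-labelled ones. It was the member with the highest fold, 3.35 by mean FPKM, and its log2 fold change was 1.37 (SE 0.0600, adjusted p = 3.34e-06, limma). Orc5, a core subunit, stood at 4.45, 4.38 and 4.14 FPKM against 5.22, 4.71 and 4.95. It was the lone member called lower, with groups that did not overlap but a small difference (log2 fold change −0.16, 95% interval −0.31 to −0.02, limma adjusted p = 0.0468). That call was lost in 5 of the 6 fits that left out 1 library, with adjusted p from 0.0715 to 0.135, and was kept without replicate 2 of syngeneic-labelled libraries. Relative to the CD3 chains, described below, Orc5 was called higher, as were 86.2% of all genes.

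The other subunits lay between. Orc2 (0.72) and Orc6 (0.55) rose on the log2 scale, and Orc3 rose by 0.14, from 11.6 ± 0.237 to 12.9 ± 0.193 FPKM. Of the Orc2 exon bases 29.8% overlap Nif3l1 on the opposite strand, and of the Orc1 exon bases 10.8% overlap Gm12743 there. Strand use in counting is not given, so both levels are uncertain. Without replicate 3 of allogeneic-labelled libraries Orc3 was not called (limma adjusted p = 0.0520), nor was it with quantile normalization, equal upper quartiles or a rescaling without immunoglobulin, globin and cell type genes (adjusted p from 0.188 to 0.309). Orc4 was at 6.02, 6.20 and 6.58 FPKM against 5.90, 6.63 and 6.38, groups that overlapped, and its difference lay between −0.15 and 0.14 (95% interval, log2). As a share of the summed FPKM of the 6 subunits, Orc1 made up 10.7% ± 0.273 in allogeneic-labelled libraries and 4.43% ± 0.173 in syngeneic-labelled ones (SD, n = 3). The log2 ratio of Orc1 to the mean of Orc2 to Orc5 within a library, which no scaling of whole libraries can change, was −0.33 ± 0.0328 against −1.90 ± 0.0860. This difference of 1.56 was the largest of the 6 ratios compared (two-sided exact permutation p = 0.1, the smallest that 3 libraries against 3 allow, adjusted p = 0.15 over the 6 ratios).

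The licensing factors rose, and unequally. Cdc6, which works with the origin complex to load the helicase, stood at 16.1, 16.9 and 15.2 FPKM against 6.79, 6.73 and 7.40 (log2 fold change 1.10, SE 0.0576, limma adjusted p = 6.97e-06). Cdt1, which brings the helicase to the origin, stood at 33.0, 32.5 and 33.6 FPKM against 21.9, 23.9 and 25.4 (0.46, SE 0.0552, limma adjusted p = 0.000314). Gmnn encodes geminin, the inhibitor that binds Cdt1 and prevents a second round of licensing, and stood at 33.4, 39.7 and 36.1 FPKM against 21.0, 20.4 and 22.6 (0.74, SE 0.0704, limma adjusted p = 0.000105). None of these 3 genes had groups that overlapped, and 43.4% of all genes were likewise higher in all 3 allogeneic-labelled libraries. The log2 ratio of Gmnn to Cdt1 was 0.14 ± 0.140 in allogeneic-labelled libraries and −0.15 ± 0.0855 in syngeneic-labelled ones, and its groups did not overlap either (two-sided exact permutation p = 0.1, adjusted p = 0.15).

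The helicase ring rose as a block. The 6 genes Mcm2 to Mcm7 together held 523 ± 6.64 FPKM in allogeneic-labelled libraries and 251 ± 7.85 in syngeneic-labelled ones (SD, n = 3), and their log2 fold changes ran from 0.82 (Mcm4) to 1.18 (Mcm7). Mcm5 was the most abundant of them, at 107, 112 and 112 FPKM against 49.8, 46.5 and 54.5. Mcm3 stood at 104, 109 and 104 FPKM against 46.8, 45.3 and 48.5 (1.15, SE 0.0383, limma adjusted p = 1.24e-06). Mcm2 was the lowest, at 50.1, 48.8 and 49.9 against 22.3, 22.5 and 23.5. The highest and lowest subunit differed 2.23-fold in allogeneic-labelled libraries and 2.21-fold in syngeneic-labelled ones, a nearly equal spread at the 2 levels of the total. The shares of 5 of the 6 did shift without overlap by small amounts. The share of Mcm4 was 15.6% ± 0.375 against 18.3% ± 0.867, and that of Mcm7 16.4% ± 0.200 against 14.9% ± 0.383.

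The factors that turn the ring into an active helicase also rose, with a wider range. Mcm10, which helps to open the ring at the start of synthesis, stood at 12.1, 11.8 and 11.5 FPKM against 4.13, 4.27 and 4.30 (log2 fold change 1.29, SE 0.0457, limma adjusted p = 1.52e-06). Cdc45 stood at 31.1, 32.7 and 31.6 FPKM against 14.1, 15.2 and 15.5 (1.04). Mcm8, a relative of the ring subunits that acts in recombination rather than in the ring, rose by 0.99, and its log2 ratio to Mcm2 to Mcm7 overlapped between the groups (−3.61 ± 0.0936 against −3.75 ± 0.0963, two-sided exact permutation p = 0.2, adjusted p = 0.2). That difference of 0.15 was 0.097 without replicate 2 of syngeneic-labelled libraries.

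GINS subunits differed among themselves more than ring subunits did. Gins1 stood at 16.6, 19.5 and 17.9 FPKM against 8.09, 7.23 and 7.42 (log2 fold change 1.15). Gins4 stood at 27.5, 31.8 and 27.6 against 23.6, 23.3 and 23.9 (0.28, SE 0.0602, limma adjusted p = 0.00527). Both rose without overlap, as did 43.4% of all genes. Gins2 (0.96) and Gins3 (0.52) lay between Gins1 and Gins4. The share of Gins4 in the 4 subunits was 47.0% ± 1.73 in allogeneic-labelled libraries and 60.2% ± 0.717 in syngeneic-labelled ones. Of the Gins2 exon bases 67.3% are shared with exons of Gse1 on the opposite strand, and whether strand was used in counting is not given in the sources used here, so the level of Gins2 is uncertain.

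All 9 polymerase genes were called higher, beside 40.7% of all genes. Pola1, the catalytic subunit of polymerase alpha, which starts each new strand, stood at 14.2, 15.1 and 14.4 FPKM against 4.80, 5.19 and 4.75 (log2 fold change 1.40, SE 0.0509, limma adjusted p = 1.74e-06). Its partner Pola2 stood at 32.8, 33.5 and 33.0 FPKM against 20.7, 21.6 and 22.6 (0.59). The primase subunits Prim1 (0.86) and Prim2 (0.88), which lay the RNA primer, lay between these values. Pola1 made up 18.4% ± 0.356 of the summed FPKM of the 4 polymerase alpha and primase genes in allogeneic-labelled libraries and 11.5% ± 0.719 in syngeneic-labelled ones, while Pola2 made up 41.9% ± 0.460 and 50.5% ± 1.47.

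The same order was found in the polymerases that extend the strands. Pold1, the catalytic subunit of polymerase delta, which makes the lagging strand, stood at 35.2, 32.5 and 35.3 FPKM against 15.7, 16.8 and 20.3 (0.93, SE 0.0925, limma adjusted p = 0.000128). The accessory subunits Pold2 and Pold3 rose by 0.37 and 0.63. Pole, the catalytic subunit of polymerase epsilon, which makes the leading strand, stood at 10.6, 10.7 and 10.3 FPKM against 4.65, 4.62 and 4.72 (1.02), and its partner Pole2 rose by 0.33. In each of the 3 polymerases the catalytic gene had the largest fold change of the subunits listed. The log2 ratio of Pola1 to Pold1 was −1.24 ± 0.114 against −1.83 ± 0.230 without overlap (two-sided exact permutation p = 0.1, adjusted p = 0.15). That of Pole to Pold1 was −1.71 ± 0.0895 against −1.91 ± 0.182, with overlap (two-sided exact permutation p = 0.2, adjusted p = 0.2), and the difference of 0.20 was 0.099 without replicate 3 of syngeneic-labelled libraries.

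The clamp was the most abundant transcript of the set and its loader moved evenly. Pcna stood at 202, 214 and 208 FPKM against 112, 106 and 113 (log2 fold change 0.91, SE 0.0389, limma adjusted p = 3.03e-06). A processed pseudogene in the table, Pcna-ps2, is 99.2% identical over 51.4% of a Pcna transcript, so reads could be split between them. The 5 RFC genes rose by 0.68 (Rfc3) to 0.93 (Rfc4), and the share of each in the RFC total overlapped between the groups. Rfc1, the large subunit, stood at 24.0, 24.8 and 23.7 FPKM against 13.9, 13.8 and 13.2. Exon bases overlap an opposite-strand gene for Rfc2 (15.1%, Lat2), Rfc4 (12.65%, Eif4a2) and Rfc5 (10.7%, Wsb2).

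The single-strand binding protein RPA, which also serves DNA repair outside S phase, rose less. Rpa1 stood at 42.1, 44.6 and 42.8 FPKM against 32.1, 31.7 and 32.5 (log2 fold change 0.41, SE 0.0344, limma adjusted p = 5.55e-05), Rpa2 rose by 0.45 and Rpa3 by 0.68. Lig1, the ligase that seals Okazaki fragments, stood at 53.5, 56.5 and 52.2 FPKM against 23.4, 24.7 and 26.5 (1.09). Fen1, the nuclease that trims them, was at 4.73, 3.63 and 4.43 FPKM against 1.95, 1.79 and 1.98 (0.85, SE 0.0953, limma adjusted p = 0.000231). Both rose without overlap, as did 43.4% of all genes. The Fen1 level is uncertain. It rests on 71 to 186 reads a library, and 78.8% of the Fen1 exon bases are shared with the opposite-strand gene Gm10143.

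The regulators of S phase entry were split. E2f1, the activating factor, stood at 18.4, 18.2 and 19.0 FPKM against 6.67, 7.97 and 8.08 (log2 fold change 1.19, SE 0.0713, limma adjusted p = 1.27e-05). Cyclin E, which with Cdk2 starts S phase, has a pair of genes. Ccne2 stood at 11.1, 10.4 and 11.6 FPKM against 5.36, 5.15 and 6.40 (0.86, SE 0.0815, limma adjusted p = 0.000103), whereas Ccne1 was at 16.3, 15.0 and 16.3 against 15.0, 13.9 and 17.1, and its groups overlapped. The difference of Ccne1 lay between −0.13 and 0.23 (95% interval, log2). The log2 ratio of Ccne1 to Ccne2 was 0.53 ± 0.0321 in allogeneic-labelled libraries and 1.45 ± 0.0379 in syngeneic-labelled ones (two-sided exact permutation p = 0.1, adjusted p = 0.15). Of the Ccne2 exon bases 17.4% overlap Ints8 on the opposite strand.

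**Figure D2:**
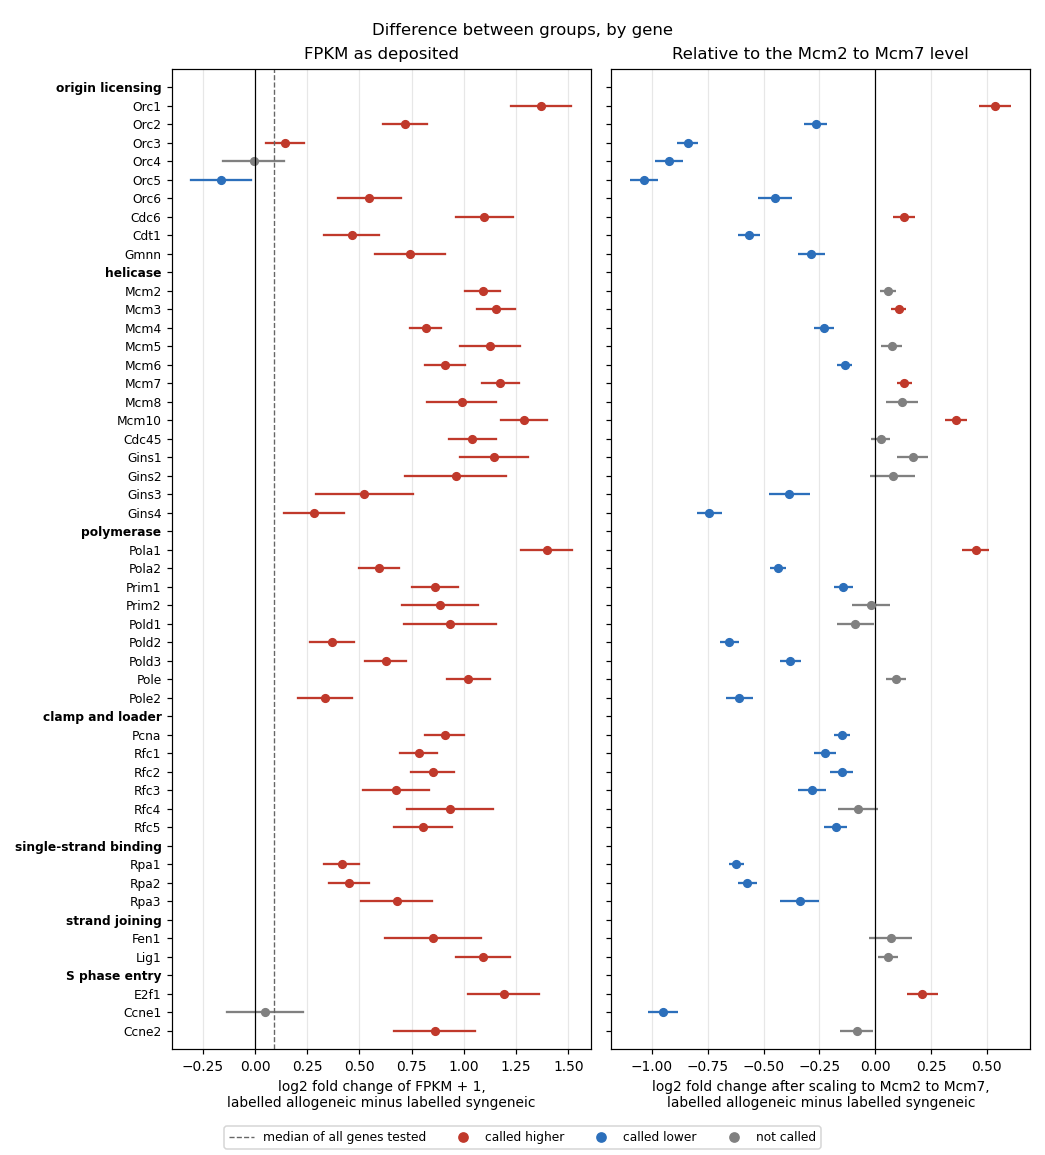
Log2 fold change of each member, allogeneic-labelled libraries minus syngeneic-labelled, as deposited (left, bars are 95% intervals, dashed line the median of all genes at 0.09) and after scaling each library to its Mcm2 to Mcm7 level (right, bars are SE). On the left 42 of 45 points are called higher, and on the right the members spread from Orc5 at −1.03 to Orc1 at 0.54.

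The members were also read relative to the ring, with each library scaled to the geometric mean of its Mcm2 to Mcm7. Among the 6 ring genes themselves Mcm3 (0.10) and Mcm7 (0.13) were higher on that scale and Mcm4 (−0.23) and Mcm6 (−0.14) lower. Since these 6 genes set the scale, their changes on it must nearly balance, with some above and others below. Of the 39 members outside the ring 5 were higher on that scale, 23 (59.0%) were lower and 11 were not called, against 7.02% of all genes higher and 81.2% lower. The 5 that rose more than the ring were Orc1 (0.54), Pola1 (0.45), Mcm10 (0.36), E2f1 (0.21) and Cdc6 (0.13, limma adjusted p = 0.0419). Orc1, Pola1 and Mcm10 kept this call with each library left out, with no trend, with the replicate block and with both other pseudocounts. E2f1 lost it without replicate 1 or 3 of allogeneic-labelled libraries (limma adjusted p = 0.0621 and 0.0767). Cdc6 lost it with the replicate block (0.0897), with no trend (0.0514), and without replicate 1 or 2 of either group (limma adjusted p from 0.0906 to 0.141). Farthest below it were Orc5 (−1.03), Ccne1 (−0.95), Orc4 (−0.92), Orc3 (−0.84) and Gins4 (−0.74). Cdc45 (0.02), Lig1 (0.06), Pole (0.09) and Pold1 (−0.09) were not called against the ring.

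**Figure D3:**
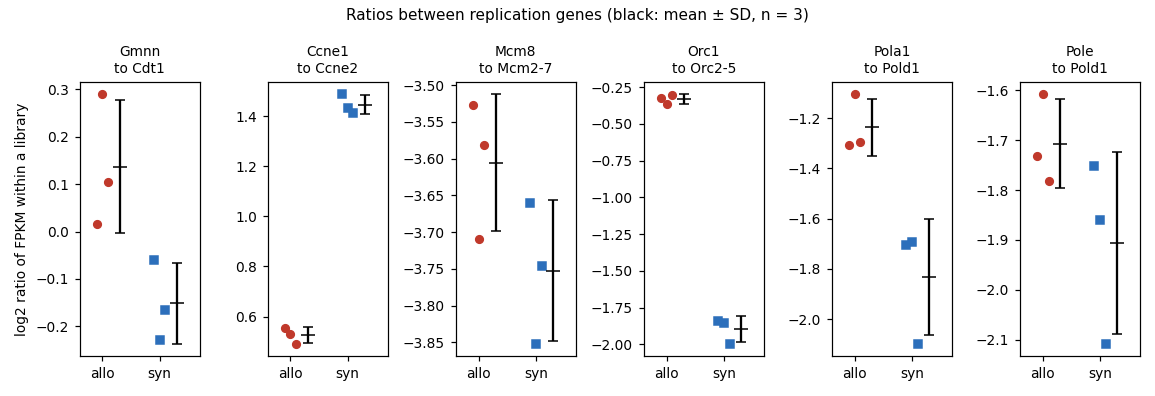
Log2 ratio of FPKM between members within each library, with the 3 libraries of each group and their mean ± SD, and axes that differ between panels. The groups are apart for Orc1 to Orc2-5 (−0.33 against −1.90), Ccne1 to Ccne2, Pola1 to Pold1 and Gmnn to Cdt1, and they overlap for Mcm8 to Mcm2-7 and Pole to Pold1.

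Other genes of the replication pathway moved with the members. Of 76 measured, 64 were called higher (84.2%, beside 40.7% of all genes), 5 were called lower (6.58%, beside 26.6%) and 7 were not called, with a median log2 fold change of 0.74. All 7 genes of nucleotide supply rose, among them Dctd (1.93) and Rrm1 (1.05), which provide the DNA building blocks. Dctd, a deaminase that makes the precursor of thymidine nucleotides, stood at 11.1, 10.8 and 9.88 FPKM against 2.04, 1.81 and 2.31. All 8 chromatin assembly genes rose, among them Uhrf1 (1.29) and Chaf1a (1.09), as did the fork protection genes Tipin (1.11), Timeless (0.98) and Clspn (0.79) and the topoisomerase gene Top2a (1.16).

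Of 11 origin firing genes 9 rose and 1 fell, and of 6 checkpoint genes 4 rose, beside 40.7% higher and 26.6% lower among all genes. With centred libraries 7 and 2 of them were called higher, beside 32.4% of all genes. Dtl, part of the ligase that destroys Cdt1 in S phase, rose by 1.25, Recql4 by 1.08 and Ticrr by 0.76. Donson, a factor that helps to assemble the active helicase, stood at 11.4, 11.0 and 12.5 FPKM against 16.8, 17.0 and 15.8 and fell by 0.47 (SE 0.0563, limma adjusted p = 0.000313). The checkpoint kinase gene Chek1 rose by 1.27 and Atr by 0.25, the latter no longer called with centred libraries (0.13, limma adjusted p = 0.137).

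Among the E2F and cyclin regulators 18 of 25 rose (72%, beside 40.7% of all genes) and 4 fell (16%, beside 26.6%). The largest rises were those of Ccnd1 (1.72), Cdk4 (1.21) and Tfdp1 (1.19), the E2F partner, on the log2(FPKM + 1) scale. By mean FPKM Skp2 (3.11-fold) and E2f8 (2.42-fold) exceeded Cdk4 (2.35-fold) and Tfdp1 (2.32-fold). Ccnd1, a D-type cyclin, stood at 6.35, 6.85 and 5.39 FPKM against 1.05, 1.40 and 1.10. The cell cycle inhibitor Cdkn1b (p27) was at 31.7, 31.4 and 34.4 FPKM against 47.7, 44.2 and 45.6 (−0.48, SE 0.0489, limma adjusted p = 0.000140). Cdkn2d, another inhibitor, fell by 0.52, E2f2 by 0.28 and Ccnd2, a D-type cyclin gene, by 0.14. These 4 genes and Donson were all called higher relative to the CD3 chains, as were 86.2% of all genes. Cdkn1a (p21) rose by 0.16, a call lost with centred libraries (0.04), without replicate 1 of allogeneic-labelled libraries (limma adjusted p = 0.0638) and without replicate 2 of syngeneic-labelled ones (adjusted p = 0.0624).

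Mitosis genes were set beside the members as the nearest cell cycle list. Of 42, 41 (97.6%) were called higher and 1 lower, beside 40.7% and 26.6% of all genes, with a median log2 fold change of 0.75 beside 0.85 for the replication members. Ttk (1.30), Bub1 (1.24) and Anln (1.18) rose most, and Cdc25b fell by 0.42. The proliferation marker Mki67 stood at 96.7, 97.7 and 96.4 FPKM against 61.5, 69.3 and 67.5 (0.55), and the mitotic kinase gene Cdk1 rose by 1.15 and Ccna2 by 0.82. No difference between the lists was tested.

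**Figure D4:**
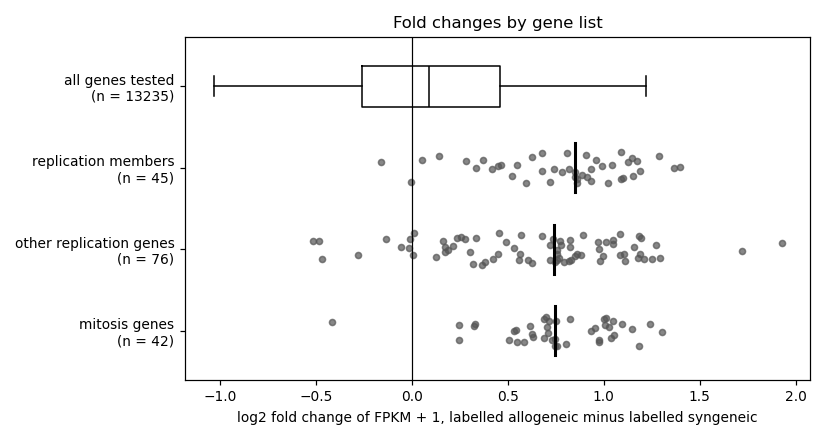
Log2 fold changes of all genes tested (box with quartiles, whiskers at the 5th and 95th percentiles) and of the 3 lists (1 point a gene, bar at the median). The medians of the lists lie between 0.74 and 0.85, against 0.09 for all genes.

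The direction of the 42 rises held with every normalization tried apart from the scaling to the ring genes themselves. With libraries centred on their median gene, which moved the median of all genes to −0.03, 40 members were higher and 1 lower against 32.4% and 35.2% of all genes, and Orc3 (0.02) and Gins4 (0.16) were no longer called. Relative to the 4 CD3 chains of the T cell receptor, which were lower in allogeneic-labelled libraries, the median of all genes moved to 1.01 and that of the members to 1.81, and all 45 members were higher against 86.2% of all genes. On that scale Orc5 turned to 0.73 and Orc4 to 0.93.

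Marker lists of red cell precursors, granulocyte precursors and blood progenitors rose with the replication genes. Those of T cells and plasma cells fell. All 10 CD4 T cell markers measured fell in allogeneic-labelled libraries, to a summed level of 925 to 939 FPKM from 1742 to 1856. All 13 markers of red cell precursors rose, to 476 to 495 from 31.9 to 34.1 FPKM, as did all 9 of granulocyte precursors (2252 to 2345 from 542.5 to 619.5) and all 7 of blood progenitors (192 to 195 from 31.1 to 39.4). Macrophage and monocyte markers rose in 9 of 10 and fell in 1, with sums of 589.5 to 619 against 354 to 379 FPKM. The 1 that fell, Ly6c2, was at 36.0 ± 6.18 against 220 ± 6.27 FPKM. It was a large part of the syngeneic-labelled sum, so these sums understate the rise of the other markers. All 7 plasma cell markers fell, to 499 to 519 from 831 to 859.5 FPKM, and both CD8 markers fell, to 1.37 to 1.57 from 13.9 to 15.6. Beside these counts, 40.7% of all genes tested were called higher and 26.6% lower.

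The remaining marker lists were low, and their calls stand beside 40.7% of all genes higher and 26.6% lower. Of 5 measured B cell markers the 2 that were tested fell, with sums of 20.6 to 22.7 against 31.4 to 36.1 FPKM, dendritic cell sums were 17.9 to 18.3 against 6.83 to 8.35 with 2 of 4 tested markers higher and 1 lower, and NK cell sums 9.04 to 12.5 against 2.67 to 2.97 with 1 of 2 higher and 1 lower. Most of the dendritic difference was Flt3 (11.1 ± 0.330 against 1.33 ± 0.247 FPKM), which the blood progenitor list also holds, and without it the dendritic sums were 6.37 to 7.23 against 5.63 to 6.78. No marker in these lists was at 0 in any library. The part of these cells in the levels of replication genes was not tested, and in bulk RNA fewer cells of a type and less RNA per cell cannot be told apart.

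**Figure D5:**
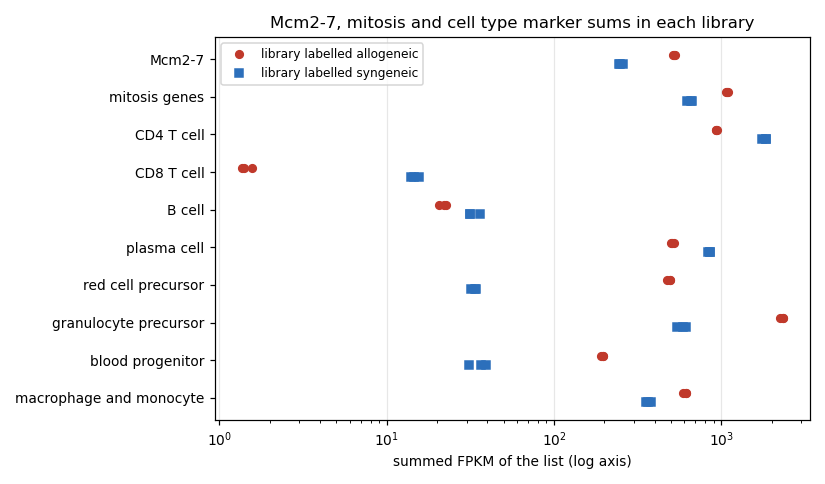
Summed FPKM (log axis) of Mcm2-7, the mitosis list and lists of cell type markers in each library. Mcm2-7 (519 to 531 against 245 to 260) and the precursor lists are higher in allogeneic-labelled libraries, and the CD4 T cell list is lower.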

How the data were processed

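RNA of 6 libraries of spleen CD4+ T cells was depleted of ribosomal RNA, per the labels' protocols. The deposited values are FPKM as made by the authors, with reads or fragments as the unit not stated. Limma is named in the submitters' processing notes. For aligner, counter, build, annotation and strand use: not given in the sources used here. FPKM times merged exon length in GENCODE M21 (GRCm38), in which 15672 of 15686 identifiers were found, came out whole within 0.05 reads in all libraries for 14580 genes (92.9%), which gave the implied depths. Counts from these steps cover counting error only.

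A gene needed 1 FPKM or more in 3 or more libraries (13235 genes, all 45 members among them), and these were tested with limma 3.58.1 in R 4.3.3 (mean-variance trend, Benjamini-Hochberg adjustment, threshold 0.05) on log2(FPKM + 1), which understates the change of low genes. The step was tested on simulated reads. Ratios used log2 FPKM without a pseudocount and two-sided exact permutation tests. Chi-square over genes between replicates exceeded counting error by a factor of 2.37 to 3.48, and all libraries were kept as separate samples. Other normalizations, filters, pseudocounts, a replicate block and leaving out each library were tried. Same-numbered libraries did not deviate together (correlations −0.05 to 0.02).

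Members, lists and tests were chosen with earlier results of these data known. All members are named, with up to 3 genes per direction of each other list by fold change, Mki67, Top2a, Ccna2, Cdk1, Cdkn1a, Cdkn1b and strain genes; 1 gene under this rule is not reported here. Scaling to Mcm2 to Mcm7 and voom in limma on the recovered reads were added after the data were seen. Pseudogenes were matched with BLAST+ 2.17.0 at 85% identity. Genes chosen outside the rule as overlapping partners are named only, and the marker genes Flt3 and Ly6c2 are given for their part in a sum.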

Additional observations from a re-analysis of the deposited data

How the results depend on the processing

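Settings changed were the normalization, the filter, the pseudocount, the trend, the replicate block, leaving out each library, and voom on recovered reads. The count of members called higher was 39 to 45 in all of them (39 of the 42 that voom tested). The count called lower (Orc5 alone) was 0 after scaling to the CD3 chains, with no filter and with the replicate block. It was 0 to 1 when 1 library was left out. With the filter of at least 5 FPKM Orc5 was not tested, so the count of 0 there says nothing about its call. With the replicate block Orc5 had adjusted p = 0.0791 (limma), and relative to the ring genes Cdc6 (0.0897) and Mcm3 (0.0639) lost their calls, while no other member call changed. Relative to the ring the count of members higher was 7, ring genes included, and ranged from 5 to 8 when 1 library was left out. Same-numbered libraries were not paired. Scaled to the CD3 chains, other replication genes called lower and mitosis genes called lower were both 0, and Orc4 (0.93), Orc5 (0.73), Donson (0.54), Cdkn2d (0.54), Cdkn1b (0.58), E2f2 (0.76), Ccnd2 (0.93), Cdc25b (0.64), Trbv12-2 (0.21) and Gbp2b (0.32) turned positive. Ccne1 turned to −0.043 with quantile normalization, −0.047 with equal upper quartiles, −0.074 with centred libraries and −0.045 when rescaled without immunoglobulin, globin and cell type genes. When 1 library was left out it ranged from −0.015 (without syngeneic-labelled replicate 2) to 0.12, and Orc4 from −0.047 to 0.026. A pseudocount of 5 moved the log2 ratio differences to −0.55 (Ccne1 to Ccne2), 0.61 (Orc1 to Orc2-5) and 0.18 (Pola1 to Pold1), and reversed Mcm8 to Mcm2-7 (−0.40) and Pole to Pold1 (−0.12), since it flattens low values. Genes of under 200 reads a library, such as Fen1, are limited by depth.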
